A study of Homo sapiens with 21 samples.

Results

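Histone cluster genes are the protein-coding genes named HIST1H to HIST4H, which lie in clusters and code for the H1 linker histone and the core histones H2A, H2B, H3 and H4. The deposited FPKM table (fragments scaled to the length of the gene model and to library size) lists 71 of them among 58735 genes. The 59 genes with an FPKM above 0 in at least 11 of 21 libraries are described here. They comprise 5 H1, 13 H2A, 16 H2B, 13 H3 and 12 H4 genes. By cluster, 44 lie in HIST1 on chromosome 6, 11 in HIST2 and 3 in HIST3 on chromosome 1, and 1 in HIST4 on chromosome 12. The member nearest the limit was HIST1H2AB (above 0 in 11 libraries, mean 0.531 FPKM). The gene just outside it was HIST1H2BB (above 0 in 10 libraries, mean 0.393 FPKM). Of the 12 listed genes that were not members, 4 had an FPKM of 0 in every library.

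The RNA came from MDA-MB-453, an established human breast cancer cell line of luminal character. There were 7 groups of 3 libraries, all of cells labelled wild type and moved to charcoal-stripped serum before treatment. The groups were untreated control, calcium (10 mM), cadmium (10 µM), GSK4716 (5 µM), diethylstilbestrol (DES, 10 µM), and DES followed after 3 h by calcium or by cadmium, each for 24 h. GSK4716 was used as an agonist and DES as an antagonist of the estrogen-related receptor beta (ESRRB), and the design asks whether the metals act through that receptor. Cells given calcium or GSK4716 had no serum during treatment, those given cadmium had a reduced amount, and the labels name a single control group. The medium of the control and of the cells given DES alone is not stated. A treatment and its medium therefore cannot be told apart. The labels do not say whether libraries of a group came from separate cultures, so the p-values below measure only the spread between these libraries.

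Libraries held between 14435925 and 28424805 fragments on genes (median 18314738), and histone cluster genes between 5783 and 42088 of them. The luminal marker FOXA1 (53.2 to 223 FPKM) and ERBB2 (97.2 to 210 FPKM) were present in all libraries. Among the markers of other cells, PTPRC, CD3E, PECAM1 and COL3A1 had a median of 0 FPKM, and COL1A1 lay between 9.34 and 32.7 FPKM.

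Canonical histone genes are made mainly in S phase, when new DNA has to be packed into nucleosomes. Their mRNAs are an exception among messengers: they end in a conserved stem-loop bound by SLBP and carry no poly(A) tail. Cells also make some polyadenylated histone transcripts, for example upon differentiation or when normal 3′ end processing fails. The libraries were built from RNA captured on poly-T beads. The values therefore concern polyadenylated transcripts of these genes, and a change in their amount cannot be told apart from a change in the share of histone mRNA that carries a tail.

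The stem-loop is shown because it defines the class and sets where most of these mRNAs end. A stem of 6 paired bases around a loop of 4, starting GG with a loop starting TT, was searched in the 150 bases after each stop codon (GENCODE release 44, GRCh38, transcribed strand). It was found in 56 of 59 members, 22 to 67 bases after the stop codon (median 35). It was not matched in HIST1H2AG, HIST1H2BI and HIST1H3E. The same search matched 1 of 4052 other coding genes on these chromosomes (0.0247%). There were 5 forms. All 12 H4 genes had a stem that starts GGCCC, and the 44 matched H1, H2A, H2B and H3 genes had GGCTC. The stem-loops of 5 members of high level, and of HIST2H2AC, the single member with its form, are given here 5′ to 3′ with the stem and loop in capitals.
HIST1H1C, chr6:26055739-26055764, minus strand: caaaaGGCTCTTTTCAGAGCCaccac
HIST1H2BK, chr6:27146361-27146386, minus strand: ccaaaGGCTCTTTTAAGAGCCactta
HIST2H2AC, chr1:149887386-149887411, plus strand: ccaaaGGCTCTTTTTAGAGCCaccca
HIST1H3H, chr6:27810511-27810536, plus strand: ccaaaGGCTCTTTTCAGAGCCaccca
HIST1H4H, chr6:26285126-26285151, minus strand: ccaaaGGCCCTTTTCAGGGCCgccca
HIST1H4I, chr6:27139649-27139674, plus strand: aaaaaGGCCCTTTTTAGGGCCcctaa
HIST1H3H and HIST1H4H show the difference between the H3 and H4 forms, and HIST1H4H and HIST1H4I the difference in the loop among H4 genes.

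The deposited gene models differ in how far they run past this element, which bears on what each FPKM value counts. In 23 members the model ended before the stem-loop, in 8 it ended in it or up to 50 bases after it, and in 25 it ran over 50 bases past it. Fragments beyond the end of a model were not counted for that gene. Levels are compared between genes per base of model, with this limit.

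Levels were very unequal between members. The mean FPKM over all libraries was below 1 for 12 members, between 1 and 10 for 28, between 10 and 100 for 16, and at least 100 for 3, namely HIST1H1C (294 FPKM), HIST1H2BK (260 FPKM) and HIST3H2A (164 FPKM). Together with HIST1H3H (98.1 FPKM) and HIST1H2BD (71.6 FPKM) these genes made up 66.2% of the summed FPKM. In control cells H2B genes accounted for 46.2% of the sum, H2A for 22.1%, H1 for 19.3%, H4 for 7.38% and H3 for 5.09%. Of the 59 members, 41 were above 0 in every library.

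**Figure D1:**
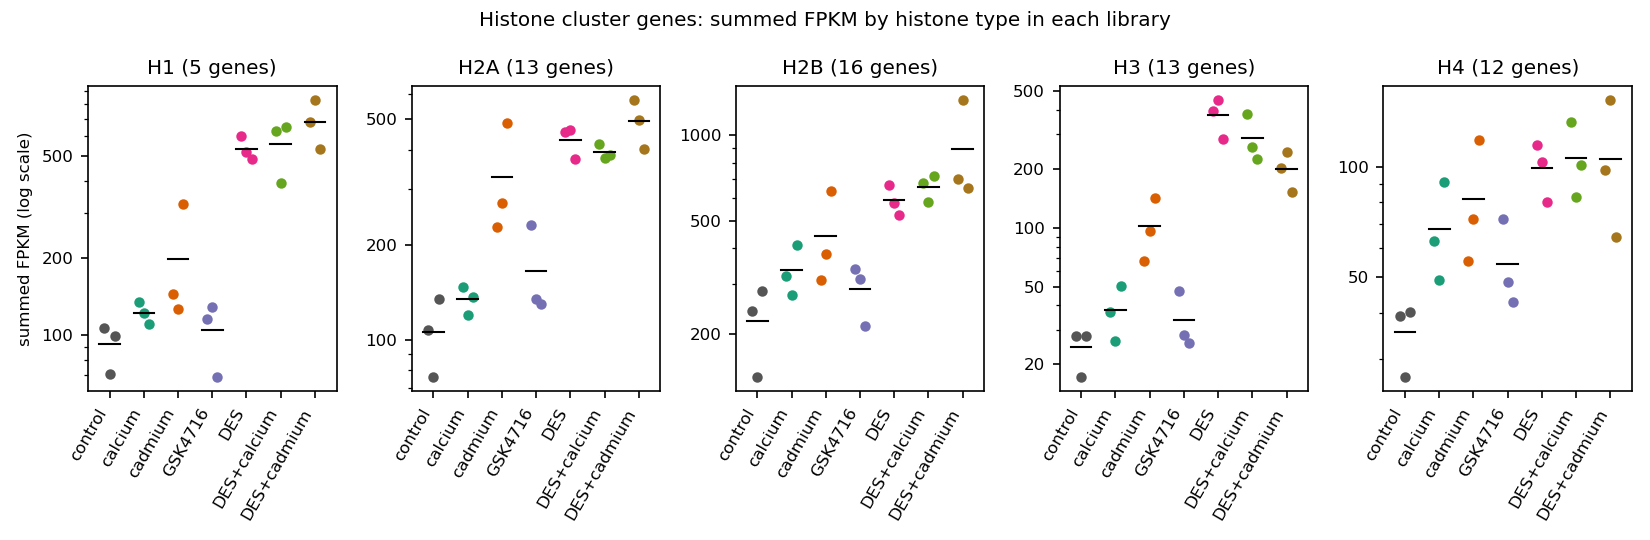
Summed FPKM of the histone cluster genes of each type (log scale) in each library of the 7 groups. Points are libraries and lines are means of 3. The 3 DES groups lie highest for H1 and H3, where the control sums were 92.4 and 24.4 FPKM and the DES sums 535 and 376 FPKM.

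Treatment with DES resulted in a broad rise of histone cluster genes. Their summed FPKM was 522, 331 and 585 in the control libraries (479 ± 132, SD, n = 3) and 2231, 2110 and 1750 with DES (2030 ± 250), a ratio of means of 4.24 (3.75 when libraries were scaled by total fragments). The ranges did not overlap under either scaling. Without the 5 members of highest level the ratio was 4.91, so the rise was not carried by those genes alone. In bulk RNA, a change in the number of cells that express these genes cannot be told apart from a change per cell.

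Fold changes were tested with limma on log2(FPKM + 0.1) over the 14686 genes with a mean of at least 0.5 FPKM, and p-values were adjusted over all of them. The filter kept 52 of 59 members. With DES, 44 members rose at an adjusted p under 0.05 and 0 fell (0 also at an unadjusted p under 0.05 and with limma-voom), against 16.7% of all genes tested that rose and 12.9% that fell. With no filter on low values 26 of these 52 were called, and calls over all genes in either direction went from 4340 to 1715. The log2 fold change was positive for 52 of 52, with a median of 2.31, where the median over all genes was 0.05. All 3 DES libraries lay above all 3 control libraries for 46 of 52 members, against 25.9% of all genes. A member can pass the filter through its level with DES. Of the 45 tested members with a control mean of at least 0.5 FPKM, 39 rose, and of the other 7 tested members 5 rose. The 7 members under the filter, among them HIST2H3A, HIST2H3C and HIST2H4A, were not counted as tested, so no call was made for them. Their log2 fold changes in a fit without a filter were positive, at 0.38 to 2.66. The lowest of these values was that of HIST1H4A, whose mean FPKM was lower with DES (0.733) than in control (0.885, with 1 library at 0), so its sign depends on the log scale.

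The type with the highest median log2 fold change was H1 (4.14 over 4 tested genes). H1 proteins bind DNA at the entry and exit of the nucleosome. HIST1H1C (ENSG00000187837, chr6:26055787-26056428), the member of highest level, had 104, 66.4 and 96.6 FPKM in control and 497, 403 and 394 FPKM with DES. The groups were well apart, with a log2 fold change of 2.29 (SE 0.23, adjusted p = 0.00132). HIST1H1D (ENSG00000124575) had 1.35, 0.782 and 1.91 FPKM in control and 51, 78.9 and 56.5 FPKM with DES, the largest change of any member (log2 5.48, SE 0.32, adjusted p = 0.000238). HIST1H1E (ENSG00000168298) went from 0.616, 1.82 and 0.642 FPKM to 40.9, 34.5 and 29 FPKM (log2 5.10, SE 0.39, adjusted p = 0.000516). HIST1H1B rose also, and all 4 tested H1 genes were called. The testis H1 gene HIST1H1T was under the filter and was listed at 0 FPKM in all control libraries.

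H3 genes, which code for the core histone with the most studied tail modifications, had a median log2 fold change of 3.18. Their summed FPKM went from 24.4 ± 6.27 to 376 ± 83.7 (ratio 15.4), and their share of all histone cluster FPKM from 5.09% to 18.5%. HIST1H3H, with a ratio of means of 21.9, made up most of the sum with DES. No sum without it was made, so this ratio and share are largely those of 1 gene. HIST1H3H (ENSG00000278828, chr6:27810064-27811300) had 15.6, 8.61 and 14 FPKM in control and 298, 345 and 192 FPKM with DES (log2 4.44, SE 0.30, adjusted p = 0.000363). HIST2H3D (ENSG00000183598, chromosome 1) had 1.05, 0.806 and 1.47 FPKM in control and 23.0, 34.8 and 24.4 FPKM with DES (log2 4.52, SE 0.26, adjusted p = 0.000238). For both genes the lowest DES library exceeded the highest control library by more than the spread within either group. Of 11 tested H3 genes 9 rose. The remaining 2 were HIST1H3E (log2 1.07, adjusted p = 0.111) and HIST3H3 (log2 0.79, adjusted p = 0.311).

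H2A and H2B form the dimers that sit on the outside of the nucleosome core. Of 13 tested H2A genes 11 rose with a median log2 fold change of 2.10, and of 16 tested H2B genes 15 rose with a median of 2.26. HIST3H2A (ENSG00000181218, chr1:228456979-228457873) had 59.6, 36.8 and 87.2 FPKM in control and 242, 275 and 225 FPKM with DES (log2 2.10, SE 0.31, adjusted p = 0.00467). HIST1H2BK (ENSG00000197903, chr6:27146418-27146798) had 155, 88.3 and 174 FPKM in control and 395, 275 and 244 FPKM with DES. Its change was small beside most members (log2 1.16, SE 0.32, adjusted p = 0.0334), and its adjusted p ran from 0.00594 to 0.254 over the alternatives. HIST1H2BD was at the edge of the threshold (36.3, 21.4 and 48.9 against 91.1, 81.2 and 51.6 FPKM, log2 1.11, adjusted p = 0.0496). HIST1H2AC had 15.5, 8.66 and 19.3 FPKM in control and 51.7, 49.2 and 32.3 FPKM with DES (log2 1.65, adjusted p = 0.0114). The largest fitted H2B change was that of HIST1H2BM (0, 0.248 and 1.27 against 8.82, 9.25 and 7.76 FPKM, log2 4.58), which rests on few fragments in control.

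H4 genes had the lowest median of the 5 types. Of 8 tested H4 genes 5 rose, with a median log2 fold change of 1.5, and their share of the sum went from 7.38% to 4.89%. HIST1H4I (ENSG00000276180), the H4 gene of highest level, had 12.9, 8.85 and 14.8 FPKM in control and 36.3, 31.0 and 29.7 FPKM with DES (log2 1.43, SE 0.22, adjusted p = 0.00493). HIST1H4H (ENSG00000158406, chr6:26277609-26285638) had 10.2, 5.97 and 13.7 FPKM in control and 12.7, 13.7 and 12.6 FPKM with DES. These groups overlapped (log2 0.46, SE 0.29, adjusted p = 0.258), and the adjusted p stayed above the threshold under every alternative (0.0945 to 0.755). The single HIST4 gene, HIST4H4, had 1.02, 0.698 and 0.610 FPKM against 0.806, 1.37 and 1.5 FPKM (log2 0.58, adjusted p = 0.239).

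By cluster, 36 of 40 tested HIST1 genes, 6 of 8 HIST2 genes and 2 of 3 HIST3 genes rose. The ratio of summed FPKM was 4.26, 4.30 and 4.07 in these clusters. Between histone types the same ratio ran from 2.67 for H2B to 15.4 for H3, where HIST1H3H made up most of the sum with DES. HIST4, with its 1 gene, had a ratio of 1.58 and overlapped control. No test of these differences was made.

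Model ends were also set beside the response. Among tested members whose model ended before the stem-loop, 19 of 21 rose with DES and the median log2 fold change was 3.17. Among those whose model ran over 50 bases past it, 17 of 21 rose and the median was 2.10. The direction was the same in both sets. The medians are given as a description, with no test of the difference.

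**Figure D2:**
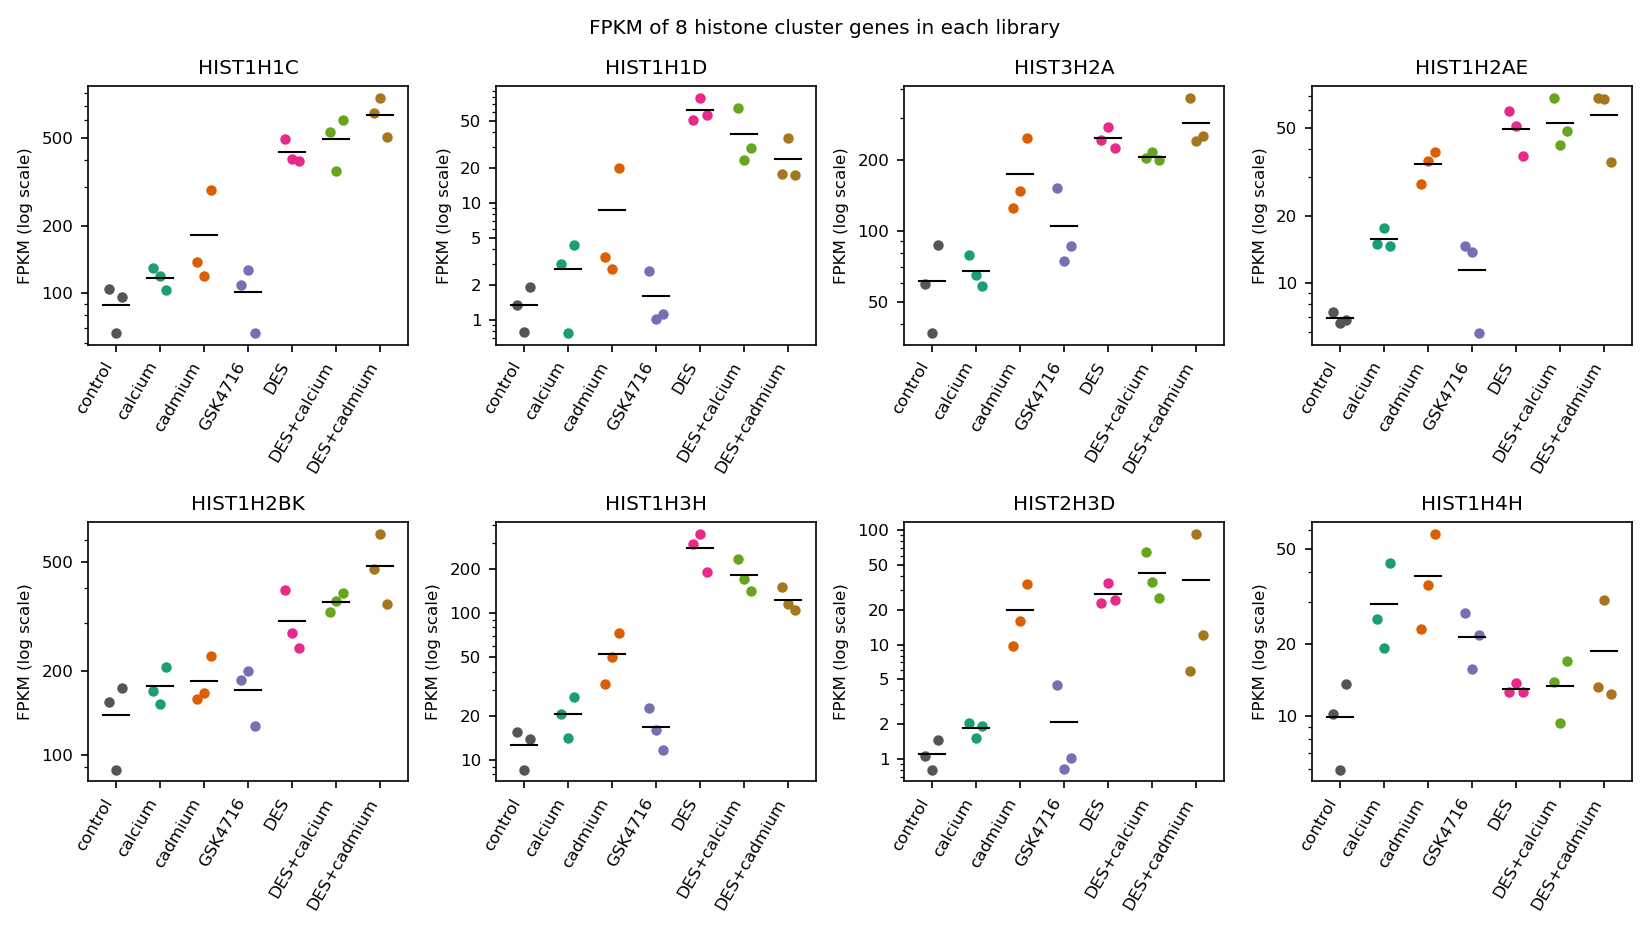
FPKM of 8 histone cluster genes (log scale) in each library of the 7 groups, with lines at the means of 3. HIST1H1D and HIST1H3H rose over 20-fold with DES (mean ratios 46.2 and 21.9), whereas HIST1H4H was higher with calcium, cadmium and GSK4716 than with DES.

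Treatment with calcium resulted in a smaller difference. The summed FPKM was 701, 592 and 799 (697 ± 103), 1.45 times the control mean, and the ranges overlapped once libraries were scaled by median ratios or by total fragments. The sum without the 5 highest members (1.74 and 1.63 times control under these scalings) and the sums of H4 and HIST2 did not overlap control under either, and those of H1 and HIST1 overlapped it under the second. Here 3 of 52 tested members rose and 0 fell, against 4.60% and 2.53% of all genes, so the number that rose is near that background. At an unadjusted p under 0.05 it was 13 higher and 3 lower, against 13.2% and 10.3% of all genes. Limma-voom called 6 members higher, where it called 10.8% of all genes in either direction. The median log2 fold change was 0.58 over members (0.364 to 0.732 with 1 library left out) and -0.01 over all genes. All 3 calcium libraries lay above control for 11 of 52 members, against 16.0% of all genes, a share of members close to that background.

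The 3 genes called with calcium were HIST1H2AE, HIST1H2BG and HIST2H2AA3. HIST1H2AE (ENSG00000277075) had 7.42, 6.60 and 6.78 FPKM in control and 15, 17.6 and 14.7 FPKM with calcium (log2 1.17, SE 0.12, adjusted p = 0.0109). HIST1H2BG had 6.21, 4.13 and 7.38 FPKM against 16.6, 12 and 20.2 FPKM (log2 1.45, adjusted p = 0.0378). HIST2H2AA3 had 0.733, 0.604 and 0.551 FPKM against 1.63, 1.56 and 1.46 FPKM (log2 1.19, adjusted p = 0.0323). It has a near-identical copy, HIST2H2AA4, so reads may have been split between them. The count fell to 0 without control replicate 1 or control replicate 2, to 1 without calcium replicate 2, and to 0 without the filter on low values. Calls over all genes fell from 1046 to 7, 46, 285 and 30 in these settings, so the loss was not particular to members.

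Not all members moved up with calcium. The 2 genes below control in all calcium libraries, named here after their values were seen, were HIST1H1B (0.409, 1.81 and 0.267 FPKM in control, 0, 0 and 0.0656 FPKM with calcium) and HIST1H2AJ (0.480, 0.612 and 0.469 FPKM in control, 0, 0 and 0.231 FPKM with calcium). Neither was called. HIST1H4H was above control in all calcium libraries (25.6, 19.3 and 44 FPKM) but missed the threshold (log2 1.56, SE 0.41, adjusted p = 0.0768). That gene is in the list of common genes that the study chose on these samples, so its direction is not independent evidence.

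Treatment with cadmium gave higher but scattered values. The summed FPKM was 805, 947 and 1711 (1154 ± 488), 2.41 times control, and the ranges did not overlap. Replicate 3 was highest of the cadmium libraries for 41 of 52 tested members. A rise was called for 1 member, HIST1H2AE (28.0, 35.6 and 39.1 FPKM, log2 2.28, SE 0.16, adjusted p = 0.0131), and a fall for 0, against 0.129% and 0.0204% of all genes. At an unadjusted p under 0.05, 35 members were higher and 0 lower, against 13.6% and 12.4% of all genes. All 3 cadmium libraries lay above control for 35 of 52 members, against 17.7% of all genes. The median log2 fold change was 1.42 over members, 1.01 without cadmium replicate 3, and 0.04 over all genes.

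The number of calls with cadmium varied widely between settings. It was 20 when all 7 groups shared one estimate, 7 with limma-voom and 14 without cadmium replicate 1, where 6.99%, 3.28% and 10.9% of all genes were called in either direction. It was 0 without cadmium replicate 2 and 0 without each control library in turn. HIST2H3D and HIST1H3A lay just outside the threshold, both at an adjusted p of 0.0507 (HIST2H3D 9.77, 15.9 and 34 FPKM, log2 3.89, SE 0.48). HIST1H3H had 32.8, 50.4 and 73.9 FPKM (log2 2.00, adjusted p = 0.0635) and HIST3H2A 125, 148 and 248 FPKM (log2 1.53, adjusted p = 0.0958). HIST1H4H had 23.1, 35.5 and 57.8 FPKM (log2 1.93, adjusted p = 0.0804). In each of these genes every cadmium library was above every control library. HIST1H2BK, with 159, 167 and 228 FPKM, overlapped control (log2 0.45, adjusted p = 0.370).

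With the agonist GSK4716, 0 members were called in either direction by limma or limma-voom, as was 0% of all genes by limma, and at an unadjusted p under 0.05 it was 2 higher and 1 lower (7.68% and 8.69% of all genes). The summed FPKM was 804, 651 and 480 and overlapped control. Among the sums by type and cluster only that of H4 did not overlap it, also when scaled by total fragments. It was 1.54 times control, with a lowest library of 42.7 FPKM against a highest control library of 40.3 FPKM. The median log2 fold change was 0.40 over members (0.105 to 0.621 with 1 library left out) and 0.00 over all genes. HIST1H4H had 27.0, 15.8 and 21.8 FPKM, all above control (log2 1.15, SE 0.34, adjusted p = 0.209). HIST1H2AE had 14.7, 13.7 and 5.94 FPKM, and the last of these lay below the lowest control library.

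**Figure D3:**
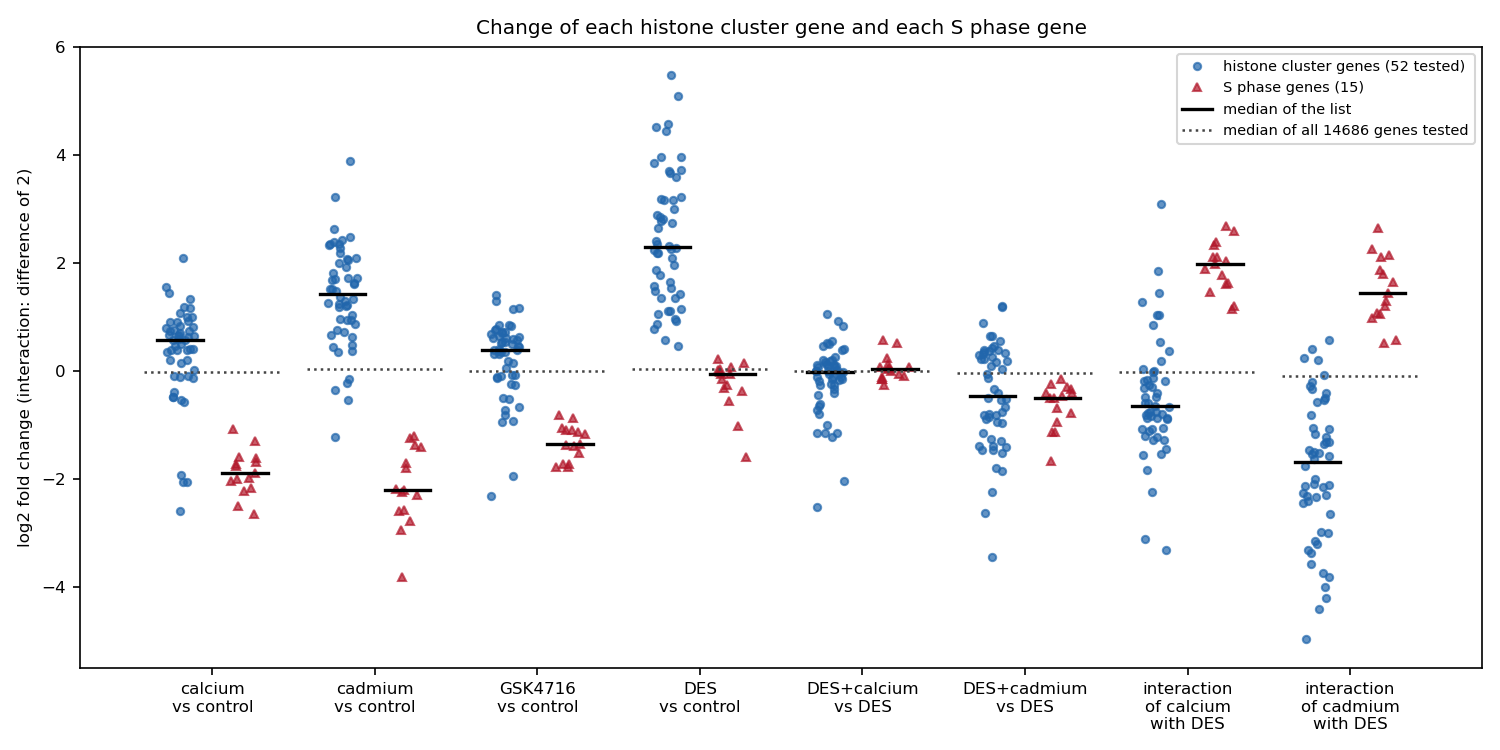
Log2 fold change of each of 52 tested histone cluster genes (circles) and 15 S phase genes (triangles) in each comparison, with list medians and the median of all 14686 genes tested. With DES the histone median was 2.31 and the S phase median -0.06. With calcium they were 0.58 and -1.89.

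After DES, the sum over all members with an added metal overlapped that of DES alone. The summed FPKM was 2239, 1693 and 2079 with DES and calcium (2003 ± 281), 0.987 times DES alone. In that comparison 0 members were called higher and 0 lower (0 with limma-voom), against 0% and 0.136% of all genes. At an unadjusted p under 0.05 it was 1 higher and 5 lower, against 4.51% and 8.71% of all genes. The sum was 2254, 3058 and 1807 with DES and cadmium (2373 ± 634), 1.17 times DES alone. The labels give replicate numbers and do not say that these pair libraries. By correlation over genes, replicate 2 with DES and cadmium was closest to DES replicate 3. Between libraries of the same number, the sum was higher with cadmium in 3 of 3 pairs. It was higher in 1 of 3 when libraries were scaled by their total fragments on genes. The H3 sum was lower in 3 of 3 pairs under both scalings, with cadmium and with calcium. The H2B sum was higher in 3 of 3 pairs with each metal, and in 2 of 3 when scaled by total fragments. The H1 and H2A sums were higher in 3 of 3 pairs with cadmium, and in 1 of 3 when so scaled. With 3 pairs these are counts with no test. Again 0 were called in either direction (0 with limma-voom), against 0.0272% and 0.238% of all genes. With the replicate number added to the fit, 0 of all genes were called with either metal. At an unadjusted p under 0.05 it was 1 higher and 13 lower, against 2.36% and 8.03% of all genes. All 3 DES and cadmium libraries lay below DES for 12 of 52 members, against 10.9% of all genes. The summed H3 FPKM was 394, 449 and 285 with DES and 201, 244 and 152 with DES and cadmium. That is 0.530 times DES, and these ranges did not overlap. HIST1H3H alone gave 298, 345 and 192 FPKM of the DES sums, and 150, 116 and 105 FPKM with cadmium. No sum without it was made. Of 11 tested H3 genes, 1 had a positive log2 fold change with cadmium and 5 had all 3 libraries below DES. With calcium 4 were positive and 0 lay below DES. The sum of the 3 HIST3 genes was also apart with DES and calcium (218 to 227 FPKM, against 248 to 296 FPKM with DES, 0.834 times). Of the 52 tested members, 42 had their highest group mean in a group given DES and 34 their lowest in control.

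Replicate 2 of the DES and cadmium group stood apart, being highest of the 3 for 28 of 52 tested members. In that library HIST2H2BE had 204 FPKM, against 47.4 and 82.1 FPKM in replicates 1 and 3, and HIST2H3D 92.1 against 5.90 and 12.2 FPKM. It was lowest for others, with 0.877 FPKM for HIST1H3B against 18.5 and 10.0 FPKM. HIST2H2BE and HIST1H3B are named after their values were seen. Whether depth or handling of that library plays a part was not tested.

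The interaction term asks whether the response to a metal differed with DES. For cadmium it was called for 6 members, all lower, against 1.18% of all genes in either direction. The members were HIST1H2AE and the H3 genes HIST1H3A, HIST1H3C, HIST1H3G, HIST1H3H and HIST1H3J. HIST1H3H had a mean of 12.7 FPKM in control and 52.4 FPKM with cadmium, and of 278 FPKM with DES and 124 FPKM with DES and cadmium (interaction -3.14 on the log2 scale, SE 0.48, adjusted p = 0.0190). Its libraries with DES and cadmium were at 150, 116 and 105 FPKM, all below the DES libraries. HIST1H3J had 0.599, 0.428 and 0.859 FPKM in control, 1.84, 4.06 and 3.14 FPKM with cadmium, 11.8, 9.23 and 12 FPKM with DES, and 3.93, 5.21 and 4.62 FPKM with both (interaction -3.32, SE 0.44, adjusted p = 0.0113). HIST1H3J shares its locus with HIST1H2AM on the same strand, so its reads are less certain. The median interaction was -1.69 over members and -0.09 over all genes. It was positive for 4 of 52 members and for 45.6% of all genes. At an unadjusted p under 0.05 it was 0 higher and 30 lower, against 6.91% and 11.6% of all genes. Limma-voom called 4, against 0.838% of all genes. The count was 3 without control replicate 2, cadmium replicate 2 or DES replicate 2 (0.102% to 0.197% of all genes called), and 15 without DES and cadmium replicate 2 (2.79% of all genes).

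For calcium the interaction was called for 0 members (0 with limma-voom), against 3.63% of all genes. At an unadjusted p under 0.05 it was 3 higher and 13 lower, against 7.63% and 12.3% of all genes. The median was -0.65 over members and -0.02 over all genes. With HIST1H4H the values ran from 19.3 to 44 FPKM with calcium and from 9.36 to 17.0 FPKM with DES and calcium. The interaction was -1.56 on the log2 scale and was not called. These comparisons share the control and DES libraries and are not independent of each other.

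Many H2A and H2B genes start back to back, with a common upstream interval. Among members there were 8 such H2A and H2B pairs, with 218 to 330 bases between the gene models. The octamer ATTTGCAT, known as a site of the POU factor OCT1 in H2B promoters, was present on either strand in the interval of 6 of them. It is shown with 11 bases on each side, 5′ to 3′ on the strand of the H2B gene (here the minus strand), with the octamer in capitals.
HIST1H2BG and HIST1H2AE, chr6:26216718-26216747: ttgaattctttATTTGCATgaaaggcctat
HIST1H2BK and HIST1H2AH, chr6:27146886-27146915: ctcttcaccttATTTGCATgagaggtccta
HIST2H2BE and HIST2H2AC, chr1:149886710-149886739: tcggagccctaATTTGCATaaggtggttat
In the RefSeq promoter table (250 bases before to 50 after the start, GRCh38), 49 of 59 members were matched. The octamer on either strand was found in 8 of 12 H2A and 7 of 11 H2B promoters, in none of the 26 others, and in 1.80% of all 27305 promoters. CCAAT was found in all 39 matched H1, H2A, H2B and H3 promoters and in 1 of 10 H4 promoters (35.7% of all promoters). TATAAA was found in 33 of 49 (12% of all promoters).

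Sharing an interval did not go with equal levels. HIST1H2BG and HIST1H2AE were close, at 5.91 and 6.93 FPKM in control and 37.6 and 49.2 FPKM with DES. HIST1H2BK had 139 FPKM in control where its partner HIST1H2AH had 0.202 FPKM, a ratio of 689, and with DES the values were 305 and 2.01 FPKM. The control ratio rests on 3, 3 and 0 fragments of HIST1H2AH, and was 401 without control replicate 3 and 1374 without control replicate 2. Both models of that pair end before the stem-loop. HIST3H2A exceeded HIST3H2BB 16.8 times in control and 13.7 times with DES, and this interval held no octamer. In all 8 pairs both genes rose with DES. The partners named here outside the rule for named genes were chosen after their values were seen.

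**Figure D4:**
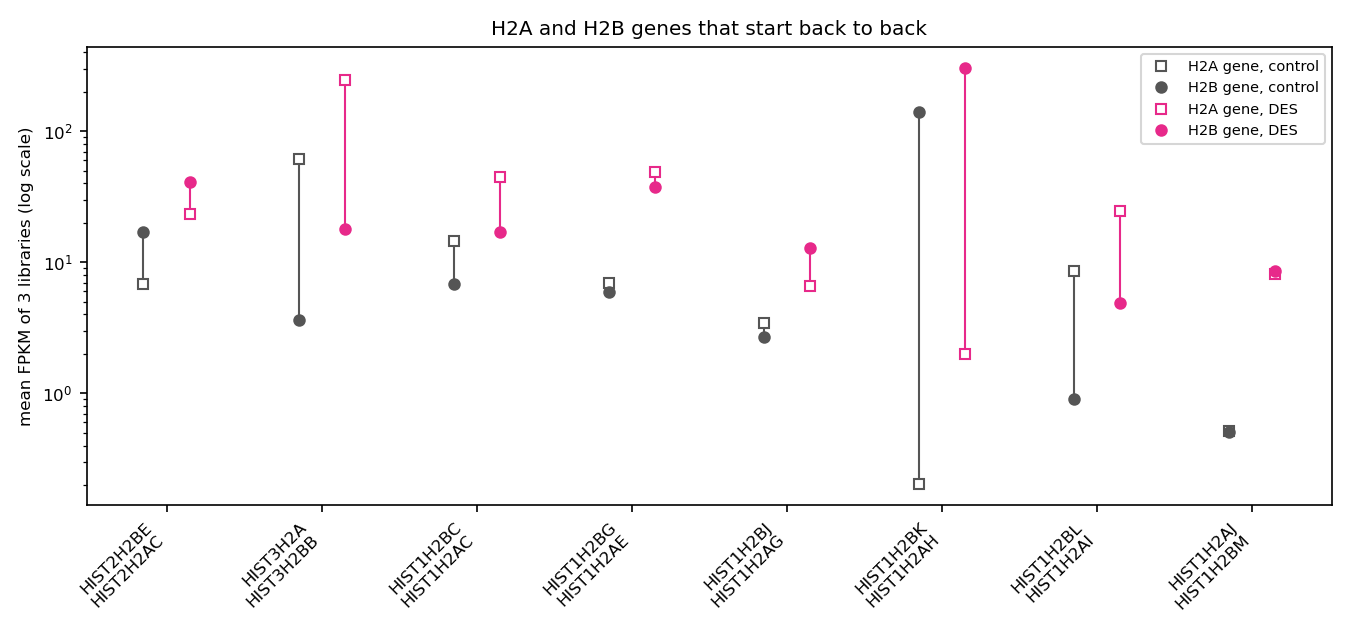
Mean FPKM of 3 libraries (log scale) for the H2A gene (squares) and the H2B gene (circles) of 8 pairs that start back to back, in control and with DES. The distance between partners was greatest for HIST1H2BK and HIST1H2AH, with ratios of 689 (on few HIST1H2AH fragments) and 152.

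S phase genes, a list of 15 that includes replication factors, are normally expressed when canonical histones are made. With DES, 0 of them rose (0 at an unadjusted p under 0.05) and 2 fell, PCNA (log2 -1.01) and FEN1 (log2 -1.59), with a median of -0.06. Of all genes 16.7% rose and 12.9% fell, so the count that fell is near that background and no result about the list. With calcium, 13 of 15 fell and 0 rose (0 at an unadjusted p under 0.05), with a median of -1.89, against 2.53% of all genes that fell. MCM2, a subunit of the replicative helicase, changed most (log2 -2.65). With cadmium the median was -2.20 and with GSK4716 -1.35. Here limma called 0 genes in both, and 14 genes were lower in each at an unadjusted p under 0.05, against 12.4% of all genes with cadmium and 8.69% with GSK4716. In these comparisons the medians of the 2 lists lay on opposite sides of the median of all genes, as the plot of changes by gene shows.

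The list of replication-independent histone genes holds variants that are mostly made throughout the cell cycle from ordinary polyadenylated mRNAs. H2AFX is an exception that also makes a stem-loop mRNA. Of 11 tested, 3 rose and 2 fell with DES, not far from the 16.7% and 12.9% of all genes, so the DES counts of this list and of the lists that follow are no result about the lists. H3F3B, which codes for H3.3, rose from a mean of 98.5 to 487 FPKM (log2 2.30) and H1F0, the H1 of non-dividing cells, from 399 to 893 FPKM (log2 1.15). H2AFX, the variant phosphorylated at DNA breaks, fell from 149 to 52.7 FPKM (log2 -1.55), while H2AFZ changed little (176 and 165 FPKM, log2 -0.11). With calcium 1 rose and 3 fell, against 4.60% and 2.53% of all genes, and H2AFX (log2 -1.45) and H2AFZ (log2 -0.83) were among the latter.

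Among 20 genes of histone mRNA 3′ end processing and decay, 2 rose and 1 fell with DES, shares below those of all genes. SLBP, the stem-loop binding protein, rose from a mean of 33.8 to 66.7 FPKM (log2 0.99), and fell with calcium to 19.4 FPKM (log2 -0.79). LSM11, a subunit of the U7 particle that guides the cleavage after the stem-loop, fell with DES from 1.47 to 0.446 FPKM (log2 -1.52). In the histone gene transcription list, 1 of 7 rose and 1 fell with DES, and NPAT, the coactivator of histone loci, had 2.29 FPKM in control and 0.870 with DES (log2 -1.51) without being called. Of 14 tested histone chaperones, 1 rose and 3 fell with DES, against the same 16.7% and 12.9% of all genes. CHAF1B, a subunit of the assembly factor CAF-1, fell (log2 -1.0), and ASF1B had a log2 fold change of -0.37 that was not called. With calcium 4 chaperones fell, with ASF1B at log2 -2.23, against 2.53% of all genes. With cadmium, 0 genes of these 4 lists were called (2 higher and 20 lower at an unadjusted p under 0.05, against 13.6% and 12.4% of all genes).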

How the data were processed

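The authors aligned paired reads with HISAT2 2.0.5 to GRCh38.p14, counted them with featureCounts 1.5.0-p3 (submitters' notes) and deposited FPKM values, which were used here. Whether libraries were strand-specific is stated in more than 1 way, so overlapping genes (11 members) and near-identical copies are uncertain. FPKM times model length gave whole fragments for 100% of values within 0.1, which set the depths; equal fragment numbers in any pair of libraries were at most 4.97% of genes. Members and gene lists were chosen with earlier results of these data known.

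Groups of 3 were compared with limma 3.58.1 (R 4.3.3, trend) on log2(FPKM + 0.1), for genes with a mean of at least 0.5 FPKM, with Benjamini-Hochberg adjustment over 14686 genes and a threshold of 0.05. Changes are on that scale and understate low genes. The script was tested on simulated data. Named were the 2 highest members of each type, up to 5 largest called changes per comparison, HIST1H4H, HIST1H2AE and the members at the limit. Replicate numbers were read as pairs only in the comparisons within DES (every correlation of deviations over 0.1, 0.103 to 0.472). Even there, DES and cadmium replicate 2 correlated best with DES replicate 3. The block left the member counts there at 0. It took calls over all genes from 20 to 0 with calcium and from 39 to 0 with cadmium. Alternatives were another pseudocount, filters, scalings, one fit, the block, limma-voom on recovered fragments and each library left out. Sums within pairs or scaled by total fragments and ratios of neighbouring genes without each library were added after seeing the data. Intervals that need depth were not used, and the authors' fold changes were not used. Sequences were read from GENCODE 44 and RefSeq, both GRCh38. Python 3, numpy and matplotlib were used for figures.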

Additional observations from a re-analysis of the deposited data

Results flagged for a closer look

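For 6 histone cluster genes the response to cadmium differed with DES by the interaction test of limma at an adjusted p under 0.05. The interaction on the log2 scale was -2.10 for HIST1H2AE, -4.20 for HIST1H3A, -2.99 for HIST1H3C, -2.15 for HIST1H3G, -3.14 for HIST1H3H and -3.32 for HIST1H3J. HIST1H3C and HIST1H3J were called in all 21 fits made (adjusted p up to 0.0407), HIST1H3H in 17 of 21, HIST1H2AE in 12 of 21, HIST1H3G in 7 of 21 and HIST1H3A in 19 of 20. HIST1H3A rests on few fragments, with 0.301, 0.230 and 0.147 FPKM in control and 0.756, 0.702 and 0.670 FPKM with DES and cadmium. The cause was not tested.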

How the results depend on the processing

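The direction of the member median was the same under each alternative with DES, calcium, cadmium and GSK4716. Members called with calcium (3) were 0 with no filter on low values, 7 of 41 at a mean FPKM of at least 2 and 6 with limma-voom on recovered fragments. Calls over all genes in these settings were 30, 1147 and 1582, against 1046 in the main fit. With cadmium (1) they were 4 with a pseudocount of 1, 4 at a mean of at least 2, 20 with all 7 groups in one fit, 7 with limma-voom and 0 with the replicate block. Calls over all genes were 148, 156, 1026, 482 and 3 in these settings, against 22 in the main fit. With DES (44) they were 26 with no filter; the median was 1.75 with a pseudocount of 1 and 2.13 scaled by total fragments. The cadmium median was 1.01 with a pseudocount of 1. DES and cadmium against DES gave 1 call with all 7 groups in one fit (603 over all genes). The calcium interaction gave 1 call with the replicate block (612 over all genes). The cadmium interaction gave 3 with no filter (49 over all genes) and 14 with all 7 groups in one fit (802 over all genes). Its median was -1.29 at a pseudocount of 1. Elsewhere the block moved no member count by over 1.5 times (43 calls with DES, 8 for the cadmium interaction).

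Leaving out 1 library gave 0 to 3 calls with calcium, 0 to 14 with cadmium (median 1.01 to 1.73) and 37 to 42 with DES. It gave 0 to 2 for the calcium interaction and 3 to 15 for the cadmium interaction (median -2.18 to -1.44). Over all genes, calls were 7 to 758 with calcium, 1 to 1605 with cadmium and 1930 to 5078 with DES. For the interactions they were 181 to 830 with calcium and 15 to 410 with cadmium. After DES, the small differences of 2 genes changed sign. With calcium HIST1H2AE was 0.09, or -0.042 scaled by total fragments (-0.11 to 0.25 with a library left out), and HIST1H4H was 0.00, or -0.13 so scaled and -0.017 with limma-voom (-0.19 to 0.24). With cadmium HIST1H2AE was 0.18, or -0.043 so scaled (-0.011 to 0.50), and HIST1H4H 0.40 (-0.020 to 0.63). The cause was not tested. Outside the DES comparisons replicate numbers were shared labels only. With 3 libraries a group and 16 tested members at a median under 10 fragments in control, small changes of low genes may have been missed. What could be detected at this depth was not tested.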
